A study of Homo sapiens with 4 samples.

Results

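ABC transporters are membrane proteins that use the energy of ATP to move drugs, conjugates, lipids, peptides or metal-containing compounds across a membrane. In LoVo cells with and without MET, 45 genes of this superfamily were followed. They were all the protein-coding genes of GENCODE version 29 whose symbol begins with ABCA, ABCB, ABCC, ABCD, ABCE, ABCF or ABCG, among 58825 gene rows of which 19916 were annotated as protein-coding. LoVo is an established colon adenocarcinoma line in which the MET receptor tyrosine kinase remains uncleaved and active without its ligand. The MET+ group comprised 2 libraries of LoVo cells labelled as wild type in genotype and as GFP control in the description. The MET-KO group comprised 2 libraries of LoVo cells carrying a CRISPR/Cas9 knock-out of MET. The labels call the libraries of a group biological replicates, and the p-values weigh each difference against the spread between them, pooled across genes. All libraries were made from total RNA of cells kept in DMEM with serum and antibiotics, with a kit that reads the 3' ends of messenger RNAs. In the study the knock-out cells were selected with puromycin and single clones were picked. Whether both MET-KO libraries derive from 1 clone is not stated, so a difference between clones and a difference due to MET cannot be told apart.

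Members of the superfamily share an ATP-binding domain and differ in what they carry. In the intestine and in carcinomas derived from it, P-glycoprotein, the breast cancer resistance protein and the multidrug resistance-associated proteins at the cell surface export drugs, toxins and conjugated metabolites, and they are best known for making tumour cells resistant to chemotherapy. Other members move cholesterol and phospholipids, serve mitochondria, peroxisomes and lysosomes, or have lost their membrane part and act on ribosomes.

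The library totals were 8429142 and 10286552 counts for MET+ cells, and 10137583 and 10228991 for MET-KO cells. At these depths 3 counts, the most that a count of 0 allows, amounted to 0.276 to 0.362 CPM, where CPM are counts scaled to a common library size after TMM adjustment of the totals. MET (ENSG00000105976, chromosome 7) had 2794 and 3272 counts in the MET+ libraries against 861 and 965 in the MET-KO ones. Its log2 fold change was -1.96 (SE, the standard error, 0.09, adjusted p = 1.49e-18, edgeR's quasi-likelihood test, adjusted by Benjamini-Hochberg, which is the test behind every adjusted p given here). Of 10 markers of colon epithelium, 7 fell and 2 rose in MET-KO cells (26.9% and 27.2% of all tested genes did), with a summed level of 9664 and 9697 CPM in MET+ and 8306 and 7322 CPM in MET-KO libraries. CDH17 had 212 and 229 counts in MET+ and 0 in both MET-KO libraries, LGALS4 fell from 89 and 107 counts to 1 in each, and KRT20 had 0 counts in both MET+ and 27 and 28 in the MET-KO libraries. Genes of chromosome Y summed to 57 and 45 counts in the MET+ libraries against 7200 and 7330 in the MET-KO ones. The summed level of 5 fibroblast markers was between 1.13 and 1.84 CPM in the 4 libraries, 3 endothelial markers reached at most 0.922 CPM and 3 hepatocyte markers were at 0. Of the leukocyte markers, PTPRC and CD3E were at 0 and LYZ had 38 and 79 counts in MET+ and 3 and 1 in MET-KO libraries. How these differences between the groups bear on the ABC genes was not tested. Whether both groups descend from the same LoVo cells was not tested either, so in every comparison that follows a difference in the origin of the cells and a difference due to MET cannot be told apart. In bulk RNA, fewer cells of a type and less RNA per cell cannot be told apart.

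The 5 sequences that follow are the 250 bases before an annotated start of 4 exporters with large differences between the groups, ABCG2, ABCB1, ABCC4 and ABCC2, shown so that their composition and motifs can be read beside the expression values. They come from a RefSeq promoter table on GRCh38.p14, are written 5' to 3' on the strand of the gene, and carry in capitals every match of 4 motifs on either strand: GGAATG (bound by TEAD factors, the partners of YAP1), the CCAAT box, GGGCGG (the GC box) and TGANTCA (AP-1). ABCG2 (chr4:88158910-88159159, minus strand) is followed by ABCB1 at its downstream start (chr7:87600885-87601134, minus strand) and at its upstream start (chr7:87713296-87713545, minus strand), which lie 112 kb apart, and by ABCC4 (chr13:95301452-95301701, minus strand) and ABCC2 (chr10:99782390-99782639, plus strand).
ABCG2: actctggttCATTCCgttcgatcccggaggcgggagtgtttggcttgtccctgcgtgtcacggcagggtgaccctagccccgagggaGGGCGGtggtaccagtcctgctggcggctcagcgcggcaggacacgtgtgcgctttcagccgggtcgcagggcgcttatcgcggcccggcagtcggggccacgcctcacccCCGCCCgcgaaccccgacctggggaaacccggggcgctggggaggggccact
ABCB1, downstream start: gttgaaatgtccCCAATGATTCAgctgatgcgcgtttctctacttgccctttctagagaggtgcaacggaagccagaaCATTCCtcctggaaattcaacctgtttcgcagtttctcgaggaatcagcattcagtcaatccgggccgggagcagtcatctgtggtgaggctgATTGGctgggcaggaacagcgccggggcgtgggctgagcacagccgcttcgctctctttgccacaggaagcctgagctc
ABCB1, upstream start: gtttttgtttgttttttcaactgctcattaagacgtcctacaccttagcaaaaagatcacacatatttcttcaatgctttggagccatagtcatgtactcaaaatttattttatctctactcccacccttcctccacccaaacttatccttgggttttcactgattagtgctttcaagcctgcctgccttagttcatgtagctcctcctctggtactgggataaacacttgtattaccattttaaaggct
ABCC4: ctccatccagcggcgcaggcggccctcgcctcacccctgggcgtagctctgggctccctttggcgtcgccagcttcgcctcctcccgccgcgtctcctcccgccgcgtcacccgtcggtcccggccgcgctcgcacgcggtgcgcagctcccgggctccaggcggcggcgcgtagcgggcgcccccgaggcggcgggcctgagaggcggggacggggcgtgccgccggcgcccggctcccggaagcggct
ABCC2: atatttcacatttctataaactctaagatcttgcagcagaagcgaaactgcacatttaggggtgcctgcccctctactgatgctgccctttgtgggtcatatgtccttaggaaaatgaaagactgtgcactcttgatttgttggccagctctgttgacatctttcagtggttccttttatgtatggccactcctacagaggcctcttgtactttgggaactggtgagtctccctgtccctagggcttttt
The share of G and C was 71.2% in the ABCG2 window, 55.6% and 39.2% at the downstream and upstream ABCB1 starts, 80.4% for ABCC4 and 45.6% for ABCC2. The ABCG2 window held a TEAD motif, read as CATTCC on the strand shown, from 241 to 236 bases before the start, and GC boxes from 163 to 158 and from 52 to 47 bases before it. That window belongs to the start nearest to the principal GENCODE start, among 5 starts listed for ABCG2. At the downstream ABCB1 start there was a TEAD motif from 172 to 167 bases before the start, a CCAAT box from 238 to 234 bases before it that shares its last base with an AP-1 motif, and an inverted CCAAT box from 79 to 75 bases before it. The upstream ABCB1 window and the windows of ABCC4 and ABCC2 held none of the 4. Libraries of 3' ends do not show which start was used, and a match describes letters, not binding.

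Of the 45 members, 26 had enough counts to be tested, 8 had counts but fell below the filter and 11 had 0 counts in all 4 libraries. The filter kept a gene that reached its minimum in either group, so a member high in 1 group and near 0 in the other could enter and the counts that follow are descriptions of the tested members. Among the 26, 18 (69.2%) passed an adjusted p of 0.05, where 54.1% of the 13801 genes tested did. They were 10 higher in MET-KO cells (38.5%) and 8 lower (30.8%), against 27.2% and 26.9% of all tested genes. Requiring a log2 fold change of 1 or more in size besides the test left 8 members, 6 higher and 2 lower, while 24.3% of all genes met both conditions. The libraries of the groups did not overlap in CPM for 23 of the 26 (88.5%), against 75.6% of all genes. ABCC10 and ABCF1 were among those that overlapped. The median log2 fold change of the tested members was 0.26, and 0.01 over all genes, while the median size of the change regardless of direction was 0.65, and 0.48 over all genes. A separate fit of the genes with 10 or more counts in each of the 4 libraries held 21 members, whose median in that fit was 0.03.

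**Figure D1:**
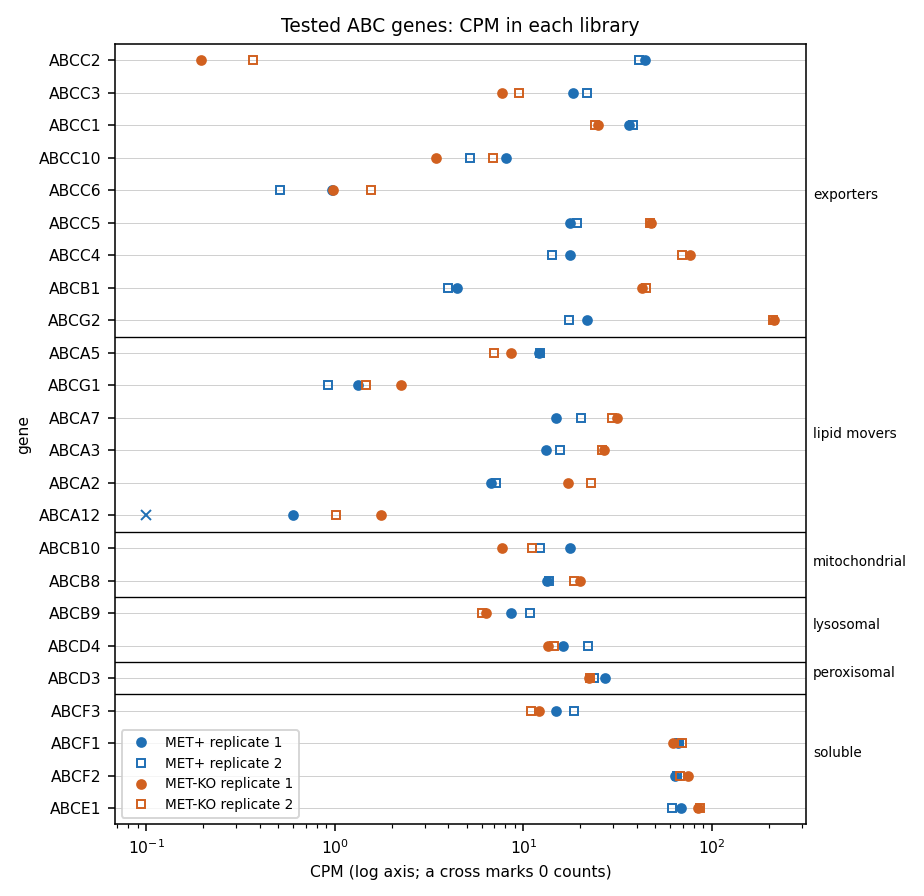
CPM (counts scaled to a common library total, log axis) of 24 of the 26 tested ABC genes in each of the 4 libraries, grouped by role, with filled circles for replicate 1 and open squares for replicate 2 of MET+ (blue) and MET-KO (orange), and a cross for a library at 0 counts. ABCG2, ABCB1 and ABCC4 have their MET-KO libraries far to the right of their MET+ libraries, ABCC2 far to the left, and for ABCF1 the 4 libraries lie between 62.4 and 69.3 CPM.

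Among the multidrug and conjugate exporters, ABCG2, ABCB1, ABCC4 and ABCC5 rose and ABCC2, ABCC3 and ABCC1 fell in MET-KO cells. ABCG2 (ENSG00000118777, chromosome 4, 88090264 to 88231322), the breast cancer resistance protein that exports drugs, urate and porphyrins, had 179 and 171 counts in the MET+ libraries against 2190 and 2280 in the MET-KO ones. This is 21.6 and 17.5 CPM against 214 and 210 CPM, with no overlap between the groups. Its log2 fold change was 3.44 (SE 0.12, adjusted p = 5.08e-23), a 10.9-fold difference. By mean CPM it was the 9th of the 45 members in MET+ and the first in MET-KO cells, and 456 of the 13801 tested genes had a log2 fold change at least as high.

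ABCB1 (ENSG00000085563, chromosome 7, 87503633 to 87713323) encodes P-glycoprotein, the broad-specificity pump of hydrophobic drugs. ABCB1 was read at 37 and 39 counts in the MET+ libraries against 436 and 485 in the MET-KO ones, or 4.46 and 3.997 CPM against 42.7 and 44.6 CPM. All MET-KO values lay above all MET+ values, and the log2 fold change was 3.37 (SE 0.18, adjusted p = 1.92e-17). The ABCB1 body is overlapped on the other strand by RUNDC3B (87627548 to 87832296), which had 37 and 30 counts in MET+ and 113 and 127 in MET-KO libraries. The annotated 3' ends, at 87503633 for ABCB1 and 87832296 for RUNDC3B, lie outside the shared stretch, so reads at these ends can be told apart. Since the strand setting of the counting is not given in the sources used here, reads within the shared stretch cannot.

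ABCC4 (ENSG00000125257, chromosome 13, 95019829 to 95301475), an exporter of cyclic nucleotides, prostaglandins and nucleoside drugs, had 147 and 139 counts in the MET+ libraries against 776 and 752 in the MET-KO ones. On the CPM scale these were 17.7 and 14.3 against 75.9 and 69.1, and the log2 fold change was 2.19 (SE 0.13, adjusted p = 6.64e-16). ABCC5 (ENSG00000114770, chromosome 3, 183919934 to 184018015), which also carries cyclic nucleotides, had 146 and 187 counts in the MET+ libraries against 487 and 512 in the MET-KO ones, a log2 fold change of 1.36 (SE 0.13, adjusted p = 1.20e-10). For both genes the 2 groups were well apart and the replicates close.

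ABCC2 (ENSG00000023839, chromosome 10, 99782640 to 99852594) encodes the apical pump for glucuronide, glutathione and bilirubin conjugates. Its counts were 365 and 398 in MET+ and 2 and 4 in MET-KO libraries, so that it was the 4th member by mean CPM in MET+ cells (42.4 ± 2.30 CPM, SD, n = 2) and lay at the level of a few reads in MET-KO cells (0.282 ± 0.122 CPM, SD, n = 2). The ratio of the summed counts, each relative to its TMM-scaled library totals, was 149 with a 95% interval of 68.0 to 406 that covers counting error only. The fitted log2 fold change was -7.16 (SE 0.29, adjusted p = 9.45e-21), and 111 of the 13801 tested genes had a value as low or lower.

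ABCC3 (ENSG00000108846, chromosome 17, 50634777 to 50692252), the basolateral exporter of glucuronides and bile salts, had 151 and 213 counts in the MET+ libraries against 79 and 103 in the MET-KO ones, with a log2 fold change of -1.22 (SE 0.19, adjusted p = 1.78e-06). ABCC1 (ENSG00000103222, chromosome 16, 15949577 to 16143074), which exports glutathione conjugates and leukotrienes, had 302 and 370 counts in the MET+ libraries against 253 and 261 in the MET-KO ones, with a log2 fold change of -0.61 (SE 0.13, adjusted p = 0.000191). Neither gene had overlapping groups on the CPM scale, where ABCC3 went from 20.02 to 8.60 and ABCC1 from 37.2 to 24.4 on average. ABCC10, a lysosomal and surface exporter of taxanes, had 67 and 51 counts in the MET+ libraries against 35 and 75 in the MET-KO ones. Its groups overlapped and its log2 fold change of -0.35 did not pass (95% interval -0.97 to 0.28, adjusted p = 0.356).

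ABCC6, which is needed for the release of ATP from liver cells, had between 5 and 17 counts per library and a log2 fold change of 0.81 that did not pass (95% interval -0.39 to 2.01, adjusted p = 0.257). ABCC6 has near-identical pseudogene copies, so its few counts are uncertain. ABCC11, an exporter found in sweat glands, had 0 counts in 3 libraries and 2 counts in MET-KO replicate 2. ABCC12 and ABCB5 had 0 counts in all 4.

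The balance among the 9 multidrug exporters ABCB1, ABCC1, ABCC2, ABCC3, ABCC4, ABCC5, ABCC10, ABCC11 and ABCG2 differed between the groups. Their summed level was 168 and 161 CPM in MET+ and 417 and 411 CPM in MET-KO libraries. Since each read stands for the 3' end of a transcript, the levels of different genes can be set side by side without dividing by length. ABCG2 made up 12.8% and 10.9% of that sum in MET+ and 51.4% and 51.0% in MET-KO libraries. ABCC2 and ABCC1 together led in MET+ cells, with ABCC2 at 26.2% and 25.4% and ABCC1 at 21.7% and 23.6%. In MET-KO libraries ABCC2 stood at 0.0470% and 0.0894% and ABCC1 at 5.94% and 5.83%. ABCB1 went from 2.65% and 2.49% to 10.2% and 10.8%, whereas ABCC5 held 10.5% and 11.9% in MET+ and 11.4% in each MET-KO library. Over all 45 members the summed level was 544 and 545 CPM in MET+ and 839 and 835 CPM in MET-KO libraries, of which ABCG2 took 3.97% and 3.22% in MET+ and 25.6% and 25.1% in MET-KO libraries.

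**Figure D2:**
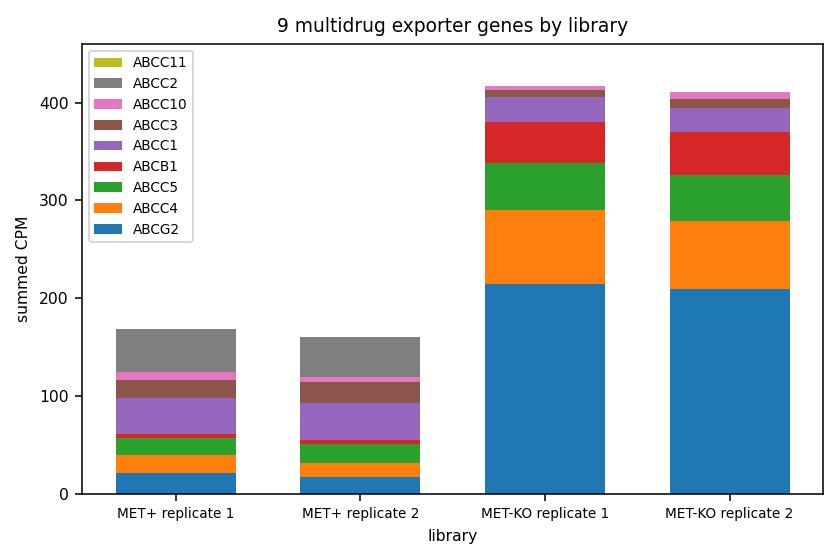
Summed CPM (vertical axis, from 0) of the 9 multidrug exporter genes in each library, with 1 colour per gene. The MET-KO bars reach 417 and 411 CPM and are about evenly split between ABCG2 and the remainder, the MET+ bars reach 168 and 161 CPM with ABCC2 and ABCC1 as the tallest parts, and ABCC2 is too thin to see in the MET-KO bars.

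Of the 16 sterol and lipid movers, which are the ABCA subfamily with ABCG1, ABCG4, ABCG5 and ABCG8, 6 were tested, 4 of which rose and 1 fell, beside 27.2% of all tested genes that rose and 26.9% that fell. ABCA2 (chromosome 9, 137007227 to 137028922), an endosomal lipid transporter abundant in brain, had 56 and 70 counts in the MET+ libraries against 177 and 248 in the MET-KO ones, a log2 fold change of 1.52 (SE 0.20, adjusted p = 8.21e-08). ABCA12 (chromosome 2, 214931542 to 215138428), the lipid transporter of keratinocyte lamellar granules, had 5 and 0 counts in the MET+ libraries against 18 and 11 in the MET-KO ones. Its fitted log2 fold change of 2.25 (SE 0.77, adjusted p = 0.0135) rested on these few reads. It lost its call when MET+ replicate 2 or MET-KO replicate 1 was left out and with DESeq2's Wald test, and was 6.84 without MET+ replicate 1. ABCA3, which loads surfactant lipids into lamellar bodies, rose by 0.87 (SE 0.16, adjusted p = 2.15e-05) and ABCA7, a phospholipid transporter linked to phagocytosis, by 0.78 (SE 0.15, adjusted p = 7.12e-05) on the log2 scale. ABCA5, a lysosomal member, fell by 0.65 on that scale (SE 0.21, adjusted p = 0.0112), a call that was lost without MET-KO replicate 2 and by DESeq2. The annotated 3' end of ABCA5, at 69244311 on chromosome 17, lies inside ABCA10 (69147214 to 69244846) on the same strand. How reads that fall in both genes were counted is not given.

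ABCG1, which exports cholesterol to high-density lipoprotein, had a log2 fold change of 0.73 that did not pass (95% interval -0.30 to 1.76, adjusted p = 0.231). ABCG4, its close relative, had between 7 and 10 counts per library and was not tested, and neither were ABCA1, the exporter of cholesterol to apolipoproteins, with 1 count in a library of each group, ABCA10, with 2 counts in MET-KO replicate 2, and ABCA13. ABCA4, ABCA6, ABCA8, ABCA9, ABCG5 and ABCG8 had 0 counts throughout. Among 12 sterol regulators and efflux partners, 10 were tested, of which 7 fell and 1 rose, against 26.9% and 27.2% of all tested genes. SREBF1, a transcription factor of lipid synthesis, fell (log2 fold change -1.35), as did LPCAT3, a phospholipid remodelling enzyme (-1.12), while NR1H2 and NR1H3, the sterol sensors that drive ABCA1 and ABCG1, had log2 fold changes of -0.06 and 0.55 and did not pass (adjusted p = 0.789 and 0.0635).

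Mitochondrial members act as dimers in the inner or outer membrane. ABCB8, which serves iron export from mitochondria, rose, and ABCB10, which acts in early heme synthesis, fell. ABCB10 had 146 and 119 counts in the MET+ libraries against 79 and 121 in the MET-KO ones, or 17.6 and 12.2 against 7.73 and 11.1 CPM, so that the groups were separated by a small gap. Its log2 fold change of -0.65 (SE 0.21, adjusted p = 0.0113) did not pass without MET+ replicate 1, without MET-KO replicate 1 or by DESeq2 (adjusted p up to 0.192). ABCB6, a porphyrin transporter, had 0 counts in all 4 libraries, and AC068946.2, a gene model that overlaps it on the same strand, also had 0. How reads that fall in both genes were counted is not given. Absence of ABCB6 reads therefore cannot be told apart from shared reads left uncounted. Of 23 genes of heme and iron-sulfur synthesis, all of them tested, 11 rose and 9 fell, against 27.2% and 26.9% of all tested genes. CPOX and PPOX, enzymes of late heme synthesis, rose by 1.45 and 1.22 and SLC25A37, the mitochondrial iron importer, by 1.182 on the log2 scale, and GLRX5, an iron-sulfur carrier, fell by 1.12.

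ABCB9, a lysosomal peptide transporter, and ABCD4, which releases cobalamin from lysosomes, both fell, with log2 fold changes of -0.65 (SE 0.24, adjusted p = 0.0212) and -0.45 (SE 0.18, adjusted p = 0.0308). These were among the least steady calls, lost in 5 and 6 of 11 alternatives, with adjusted p up to 0.175 and 0.406. ABCB9 is overlapped on the other strand by OGFOD2 and ARL6IP4. The chromosome medians beside them were -0.32 for chromosome 12 and -0.51 for chromosome 14. LMBRD1, the lysosomal partner of ABCD4, had a log2 fold change of -0.37 and did not pass (adjusted p = 0.0712).

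Among peroxisomal members, ABCD3, which imports branched-chain acyl-CoA, had a log2 fold change of -0.17 that did not pass (95% interval -0.47 to 0.12, adjusted p = 0.33), and ABCD2 had 0 counts. Of 17 peroxisome biogenesis genes 16 were tested, 3 rose and 2 fell, against 27.2% and 26.9% of all tested genes. The one with a change of at least 1 was PEX6, an ATPase that recycles import receptors, with 7 and 8 counts in the MET+ libraries against 62 and 47 in the MET-KO ones (log2 fold change 2.62, adjusted p = 5.06e-06). PEX3 and PEX19, which place ABCD proteins in the membrane, had log2 fold changes of 0.82 (adjusted p = 0.0014) and 0.19 (adjusted p = 0.332).

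Soluble members, which have ATP-binding domains alone, had log2 fold changes between -0.54 and 0.40. ABCE1, the ribosome recycling factor, rose from 68.2 and 61.7 CPM to 84.0 and 86.8 CPM, a log2 fold change of 0.40 (SE 0.10, adjusted p = 0.00154), and without MET+ replicate 2 the adjusted p was 0.0509. ABCF3 fell by 0.54 (SE 0.19, adjusted p = 0.0146) on the log2 scale and lost its call without MET+ replicate 2, without MET-KO replicate 2, by DESeq2 and with library totals alone (adjusted p up to 0.155). ABCF1, which acts in translation initiation, had 547 and 649 counts in the MET+ libraries against 638 and 754 in the MET-KO ones and a log2 fold change of -0.01 (95% interval -0.22 to 0.21, adjusted p = 0.96), whose sign turned with library totals alone (0.096). Of the 4 tested genes of 5 that release or rescue ribosomes beside ABCE1, 2 fell and none rose, against 26.9% and 27.2% of all tested genes: ETF1 had a log2 fold change of -0.91 and PELO of -0.31. ABCE1 is overlapped on the other strand by ANAPC10 and OTUD4.

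**Figure D3:**
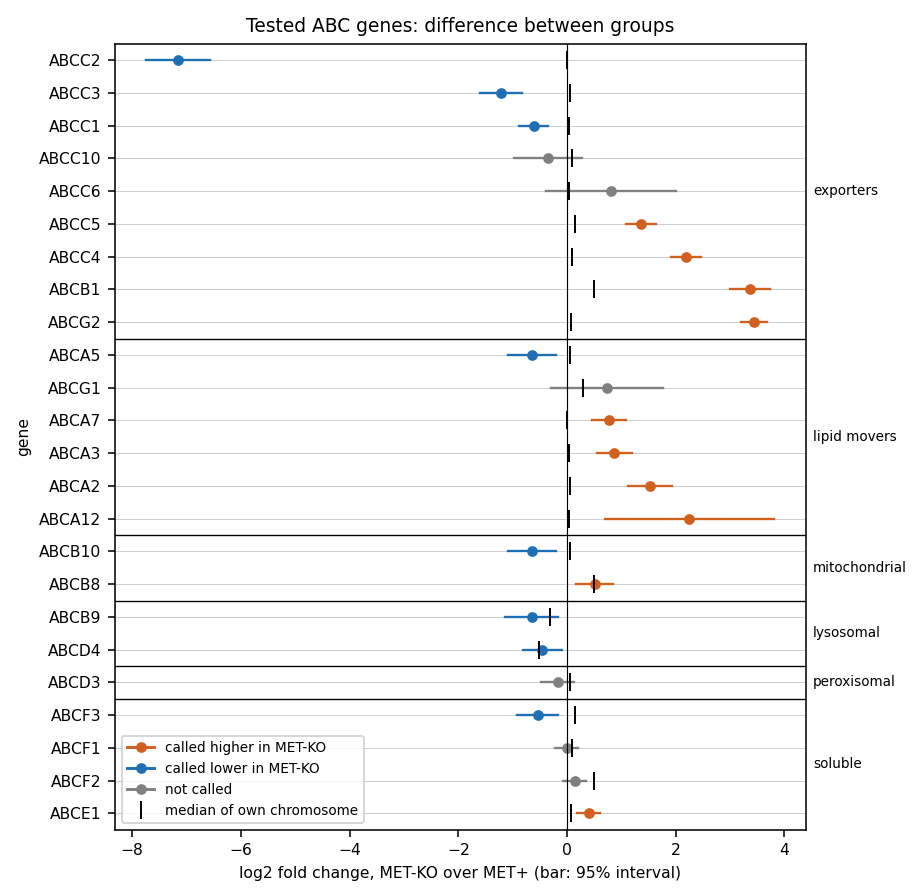
Log2 fold change of MET-KO over MET+ (horizontal axis) with its 95% interval for 24 of the 26 tested ABC genes, grouped by role, with a black tick at the median log2 fold change of the chromosome of each gene. Of the intervals, 10 lie to the right of 0 and were called higher (orange) and 8 lie to its left (blue), and those of the called genes ABCB8, ABCB9 and ABCD4 cover their chromosome's tick.

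The 2 sulfonylurea receptors, which are regulatory subunits of potassium channels, were hardly detected, ABCC8 with 0 counts and ABCC9 with 0 and 2 counts in MET+ and 0 and 4 in MET-KO libraries. KCNJ11, a channel subunit that pairs with them, fell by 1.62 and KCNJ8, the other one, rose by 1.34 on the log2 scale. ABCB11, the bile salt pump of liver, had 1 count in MET+ replicate 2. ABCB4, which exports phosphatidylcholine into bile, is taken up with chromosome 7.

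The 6 members on chromosome 7 were compared with that chromosome, since its 673 tested genes centred on a log2 fold change of 0.50 as their median (lower quartile 0.04, upper 1.08), 77.4% of them lay above 0, 54.7% were called higher and 11.3% lower. Over the other chromosomes the median was -0.015. Each gene was tested again with its chromosome's median in place of 0, a median taken as known without error, and 55.3% of chromosome 7 genes and 51.8% of all genes passed this test. ABCB1 stood 2.87 above the chromosome median (SE 0.18, adjusted p = 2.19e-15), and 25 of the 673 genes, itself among them, had a value at least as high. ABCB8 had 111 and 134 counts in MET+ and 203 in each MET-KO library. Its log2 fold change of 0.50 (SE 0.17, adjusted p = 0.0127) differed from the chromosome median by 0.0024 (SE 0.17, adjusted p = 0.994), and the call against 0 was lost without MET-KO replicate 1 and by DESeq2. ABCF2, a relative of ABCF1, had 526 and 639 counts in the MET+ libraries against 759 and 739 in the MET-KO ones. Its log2 fold change of 0.14 did not pass against 0 (95% interval -0.07 to 0.35, adjusted p = 0.268), and it lay 0.36 below the chromosome median (relative value -0.36, SE 0.11, adjusted p = 0.00439).

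The other 3 chromosome 7 members were below the filter. ABCB4, a neighbour of ABCB1, had 0 and 1 counts in the MET+ libraries against 6 and 1 in the MET-KO ones, a ratio of 5.99 with a 95% counting interval of 0.769 to 270, so a difference was not detectable at this depth. ABCA13, a very large lipid transporter, had 0 and 4 counts in MET+ and 0 in both MET-KO libraries. ABCB5 had 0 in all 4, which allows up to 3 counts in each. The tested genes within 5 Mb of these members had median log2 fold changes of 0.81 for ABCB4 (26 genes), 0.29 for ABCA13 (40 genes) and 1.05 for ABCB5 (33 genes), and those around ABCB8 and ABCF2 (56 genes each, largely the same) of 0.51.

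**Figure D4:**
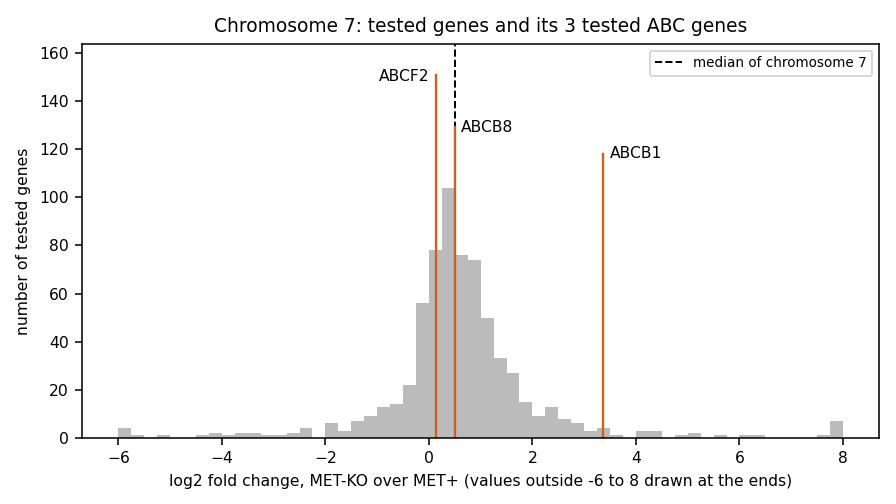
Number of tested chromosome 7 genes (vertical axis) by log2 fold change of MET-KO over MET+ (horizontal axis), with the chromosome median of 0.50 as a dashed line and the 3 tested ABC genes as orange lines. ABCB8 lies on the median, ABCF2 to its left at 0.14, and ABCB1 in the right tail at 3.37.

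Around ABCB1, 29 tested genes within 5 Mb had a median log2 fold change of 0.79, of which 17 rose and 2 fell, against 54.7% and 11.3% of chromosome 7. In a narrower window of 0.5 Mb on either side of the gene, chosen after its values were seen, 10 of 11 other tested genes rose and their median was 1.28. TP53TG1, a non-coding RNA gene, had 25 and 33 counts in the MET+ libraries against 403 and 389 in the MET-KO ones (log2 fold change 3.54, SE 0.20). ADAM22, a catalytically inactive member of the ADAM family, had a log2 fold change of 3.004, KIAA1324L of 2.84 and RUNDC3B of 1.61. TMEM243, CROT, SRI, SLC25A40, DMTF1 and AC005076.1 had values between 0.63 and 1.37, and DBF4, an activator of DNA replication, was the gene that did not pass, at -0.02. ABCB1 thus had the second highest value of these 12 genes, and whether they changed for a shared reason was not tested.

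**Figure D5:**
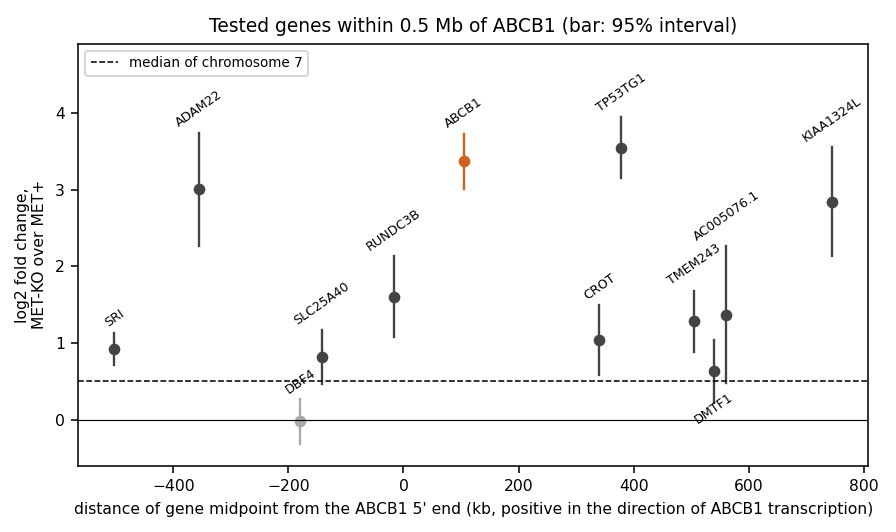
Log2 fold change of MET-KO over MET+ (vertical axis, bar for the 95% interval) of ABCB1 (orange) and the 11 other tested genes within 0.5 Mb, against the distance of the gene midpoint from the ABCB1 5' end in kb. Every gene but DBF4 (light grey) was called higher, and TP53TG1, ABCB1, ADAM22 and KIAA1324L lie far above the chromosome median (dashed line).

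With each member set against its own chromosome, 16 of the 26 (61.5%) passed, 9 above and 7 below, where 51.8% of all genes did. Of the 18 calls against 0, 15 were kept. Those not kept were ABCB8, ABCB9, with a relative log2 fold change of -0.33 (adjusted p = 0.251), and ABCD4, with 0.062 (adjusted p = 0.797), and ABCF2 was added. ABCG2, ABCC4 and ABCC2 stood 3.38, 2.10 and -7.15 from their chromosome medians.

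Genes with roles next to the exporters were counted from lists of whole families and of known regulators. Of the 3 ABC genes that carry other names, TAP1 and TAP2, which load peptides for antigen presentation, rose by 1.25 and 0.55 on the log2 scale, and TAPBP, their partner, rose by 0.46. CFTR, the chloride channel, which lies on chromosome 7 like ABCB1, had 36 and 44 counts in the MET+ libraries against 17 and 21 in the MET-KO ones, a log2 fold change of -1.29 (SE 0.38, adjusted p = 0.0044). Of 35 genes of the SLCO and SLC22A families, which take up organic anions and cations, 11 were tested, 8 fell and 2 rose, where 26.9% of all tested genes fell and 27.2% rose. SLCO1B3, an uptake transporter of bile salts and drugs, fell from 715 and 827 to 99 and 142 counts (log2 fold change -2.91, adjusted p = 5.81e-19), SLCO3A1 and SLCO4C1 fell with log2 fold changes of -3.36 and -2.76, and SLCO5A1 had 30 and 55 counts in MET+ and 0 and 1 in MET-KO libraries. SLCO1B1 had 9 and 12 counts in MET+ and 0 and 1 in MET-KO libraries. SLC22A15 and SLCO2A1, a prostaglandin transporter, rose by 2.23 and 1.599 on the log2 scale.

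Of 12 regulators of drug and bile acid handling, 9 were tested, 5 of which fell and 2 rose, against 26.9% and 27.2% of all tested genes. AHR, the dioxin receptor on chromosome 7 that drives xenobiotic genes, had 394 and 351 counts in the MET+ libraries against 2049 and 2083 in the MET-KO ones (log2 fold change 2.24, SE 0.11, adjusted p = 4.25e-18). HNF4A, a factor of intestinal and hepatic identity, fell from 541 and 804 to 83 and 61 counts (log2 fold change -3.43, adjusted p = 5.75e-19). PPARG and RXRA, nuclear receptors of lipid and xenobiotic signalling, fell, with log2 fold changes of -1.99 and -1.06. NR1I2, the pregnane receptor that induces ABCB1 and ABCC2 in liver and gut, had 4 and 1 counts in MET+ and 0 in MET-KO libraries and was not tested.

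Promoter windows were found in the RefSeq table for 35 of the 45 members. For 31 of them, bases after at least 1 listed start, not always that of the window used, lay in a GENCODE transcript. The starts of the windows for ABCB9, ABCC9 and ABCC10 lay 6535, 4752 and 3888 bases from the principal GENCODE start. Those of the other members lay at most 379 bases from it. GGGCGG occurred in 20 of the 35 (57.1%), against 42.6% of all 35116 promoters in the table, and CCAAT in 7 (20%), against 32.0%. GGAATG was found in 8 (22.9%), against 11.9%, and TGANTCA in 1 (2.86%), against 6.57%. The 8 with GGAATG were ABCG2, ABCC5, ABCF1 and, each at 0 counts in all 4 libraries, ABCA9, ABCB6, ABCD2, ABCG5 and ABCG8. The windows of ABCG5 and ABCG8 overlap, so the same match may be counted for both. For ABCB1 the motif shares used the upstream start, which lies nearest to the principal GENCODE start. Among the 10 members called higher, the GGAATG motif was present for ABCG2 and ABCC5, and among the 6 members called lower with a window it was found in none. CCAAT had the same split, with 2 of the 10 and 0 of the 6. GGGCGG was found in 6 of the 10 and 5 of the 6, and TGANTCA in 0 of either.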

How the data were processed

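RNA of 2 MET+ and 2 MET-KO LoVo samples was sequenced from QuantSeq 3' (FWD) libraries. The deposited files hold the counts of reads per gene that the authors obtained from their alignments, whole numbers without normalization, for 58825 Ensembl gene rows and 99 spike-in rows that were all at 0. Per the labels, the submitters' processing notes name bcl2fastq, cutadapt 1.16, FastQC 0.11.7, MultiQC 1.5, STAR 2.5.4a, featureCounts 1.6.2, DESeq2 1.18.1 and GRCh38. The annotation, the strand setting and the handling of reads with several positions or in overlapping genes are not given in the sources used here. The paper mentions no molecular identifiers. The 95% intervals of count ratios, given for ABCC2 and ABCB4, cover counting error only. Those of log2 fold changes come from the edgeR fit and include the spread between libraries, pooled across genes. Gene names came from GENCODE 29, which held 58552 of the IDs. The other 273 took at most 0.00396% of a library.

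The counts were tested with edgeR 4.0.16 in R 4.3.3 over all genes (filterByExpr by group, TMM scaling, quasi-likelihood test with the group as the only term, Benjamini-Hochberg adjustment, threshold 0.05). CPM are relative to the library totals multiplied by their TMM factors. For the test against the own chromosome, the offsets of the MET-KO libraries were shifted by the median of the chromosome, for chromosomes with at least 50 tested genes. With 2 libraries per group an exact permutation test cannot go below p = 0.333, so that p-values rest on spread pooled across genes. Members and lists were chosen with earlier results of these data known, and the tests were tested on simulated data. Every member with a count was named, except for 2 tested members not reported here, with counts per library for calls of at least 1 on the log2 scale, chromosome 7 members and the 9 exporters, and genes of the lists were given values when called with a change of at least 1. Some further genes were named as partners after their values were seen. Alternatives were other scalings, DESeq2 1.42.0, other filters, thinning to the smallest library, a replicate block, a fold threshold and leaving out each library. Motifs were sought on both strands of 250-base windows. Figures were drawn with matplotlib 3.10.9 in Python 3.11.15.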

Additional observations from a re-analysis of the deposited data

How the results depend on the processing

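Of the 18 calls among the members, 10 stayed past the threshold in every alternative fit that could test them (ABCA2, ABCA3, ABCA7, ABCB1, ABCC1, ABCC2, ABCC3, ABCC4, ABCC5 and ABCG2), and 8 were lost in at least 1. Of the 10, ABCA3, ABCA7 and ABCC1 changed by under 1 on the log2 scale and were lost when a change of that size was required. The 8 members called lower became 5 with library totals alone, which moved the median of all genes to 0.11 and the share of higher calls from 50.3% to 59.2%, 3 with DESeq2's Wald test and 2 when a log2 change of at least 1 was required. The latter left 6 of the 10 members called higher, 8 of the 16 called against their own chromosome and 3355 of the 7467 genes called. DESeq2 and edgeR shared 11 calls among the members. When each library was left out in turn, 4 to 7 members were called lower, with 5 without MET+ replicate 2, 5 without MET-KO replicate 1 and 4 without MET-KO replicate 2, and 8 to 10 were called higher, the remaining library of a group being assumed to vary like the other group. The median of the members ranged from 0.069 without MET-KO replicate 2 and 0.11 without MET+ replicate 1 to 0.24, and was 0.03 with at least 10 counts in every library. The median of chromosome 7 was 0.61 with library totals alone, 0.53 with DESeq2's Wald test, 0.53 without a filter and 0.50 to 0.56 when libraries were left out. Signs turned for 2 of the named genes that were not called: ABCF1 (-0.01) had 0.096 with library totals alone, 0.031 with at least 10 counts in every library and -0.082 to 0.062 with a library left out, and ABCC10 had -0.94 to 0.060. Where no cause is given for a change, it was not tested.

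A replicate block gave 10 members higher, 8 lower, a median of 0.26, 16 called against their own chromosome and 7055 genes called. The replicate numbers were not taken as pairs, since deviations of same-numbered libraries had a correlation of -0.022. At this depth a count of 0 allows up to 3 counts, so no difference could be measured for the 11 members at 0. For ABCB6 this limit leaves out reads shared with AC068946.2, if these were not counted.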

Other observations

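Among ABC rows outside the protein-coding set, the pseudogene ABCC6P1 had 5 and 5 counts in MET+ and 0 in both MET-KO libraries, and ABCC6P2 had 2 and 4 counts in MET+ and 7 and 6 in MET-KO libraries. ABCA11P, a pseudogene of the lipid transporter subfamily, had 1 and 2 counts in MET+ and 6 and 19 in MET-KO libraries, and ABCA17P had 15 to 24 counts in the 4 libraries.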
